A study of Homo sapiens with 12 samples.

Results

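CD14, CD33, CD4, CD68, CSF1R, ITGAM, ITGB2, FCER1G, TYROBP and FCGR1A encode receptors and adaptors that mark monocytes, and their transcripts were measured in THP-1 cells after short inhibition of transcriptional kinases. These 10 genes were chosen by name, and each was followed through the one of its transcripts with the highest total read count. They are 10 of 57002 named genes in the table. Reads were enough for 9 of them to be tested among 15831 genes, and CD14 was not. In the 9 tested genes the lowest count in any library was 56 reads, so each passed the filter in all groups.

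THP-1 is a human acute myeloid leukaemia line with monocytic features that carries the MLL-AF9 fusion. AZ5576 cells, THZ531 cells, YKL5124 cells and cells given the vehicle DMSO were each treated for 2 hours, with 3 libraries per group. From general knowledge rather than the labels, AZ5576 targets CDK9, which releases paused RNA polymerase II, THZ531 targets CDK12 and CDK13, which act during elongation, and YKL5124 targets CDK7, a subunit of the initiation factor TFIIH. All 4 groups, DMSO included, also received 1 mM 4-thiouridine in the last 10 minutes, each treatment used 1000000 cells, and purified RNA received a 5% spike-in from Drosophila S2 cells. The labels give no dose. Comparisons with DMSO ask how far each transcript moved within that time, and comparisons between inhibitors ask whether the compounds differed. Whether libraries of a group were grown separately is not in the labels, and the p-values therefore rest on library-to-library spread that may be only technical.

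Reads came from the 3' ends of polyadenylated RNA. Human read counts per library ran over 5048372 to 12743626 in AZ5576, 8611121 to 10761388 in THZ531, 7776730 to 11275192 in YKL5124 and 9798972 to 12518274 in DMSO, and AZ5576 replicate 2 was the shallowest. Of 16 monocyte lineage markers, which include the 10 genes of this report, 15 were measurable and CD14 was not. Summed levels of the 16 markers are given as counts per library total without TMM. They were 2425 to 2668 CPM in AZ5576, 2037 to 2171 CPM in THZ531, 2356 to 2647 CPM in YKL5124 and 2660 to 2951 CPM in DMSO. All 5 erythroid markers and 4 of 6 T cell markers (CD3E, CD3G, CD2 and CD8A) had 0 reads, and the 6 T cell markers summed to at most 0.41 CPM. On the same scale, summed B cell markers lay between 8.48 and 15.4 CPM, natural killer markers between 2.32 and 3.85 CPM, and megakaryocyte, epithelial and fibroblast markers each under 1 CPM. All other levels are given in CPM, counts brought to a common human library total and scaled by TMM, which sets the middle of the human genes equal between libraries. Every log2 fold change is relative to that middle unless another scaling is named.

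The proteins act in a few linked systems. FCER1G and TYROBP are small membrane adaptors whose cytoplasmic tyrosine motif (ITAM) is phosphorylated by Src family kinases and then recruits the kinase SYK. They carry the signal for receptors that lack one, such as FCGR1A, the high-affinity receptor for IgG known as CD64. ITGAM (CD11b) and ITGB2 (CD18) form complement receptor 3, an integrin of adhesion and phagocytosis. CD33 is an inhibitory Siglec that binds sialic acid and is the target of gemtuzumab ozogamicin in acute myeloid leukaemia. CSF1R is the receptor for CSF1 and IL-34 that supports monocyte and macrophage survival, CD14 is the lipopolysaccharide co-receptor of TLR4, CD4 binds HLA class II, and CD68 is a glycoprotein of late endosomes and lysosomes.

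Under AZ5576, 5 of the 9 tested genes rose relative to DMSO and 0 fell by edgeR's quasi-likelihood test, with 0 lower also at an unadjusted p under 0.05 and by DESeq2. These were FCER1G, CD4, CD68, ITGB2 and TYROBP, and their log2 fold changes were between 0.17 and 0.43. Over all genes tested, 41.7% were called in this comparison, 18.6% as higher and 23.1% as lower. The median of the 9 genes was 0.23 on the log2 scale, against 0.01 for all genes. The count was 3 without DMSO replicate 1, without DMSO replicate 3 or without AZ5576 replicate 1, and it was 1 with fly spike-in scaling, where that gene, FCGR1A, was lower.

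Under THZ531, FCER1G, TYROBP, CD33, CD4, CD68 and ITGB2 rose and FCGR1A fell, 7 of 9 in all. The background in this comparison was 63.4% of all genes called, 30.4% as higher and 32.9% as lower. The median log2 fold change was 0.26 for the 9 genes and 0.00 for all genes. With fly spike-in scaling no gene of the set was higher under THZ531 and 2 were lower, FCGR1A and CSF1R.

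Under YKL5124 only FCER1G passed the test, 1 of 9, while 2 were higher and 2 lower at an unadjusted p under 0.05. In this comparison 20.8% of all genes were called, 7.25% as higher and 13.5% as lower, and the median log2 fold change was 0.11 for the 9 genes and 0.00 for all genes. The count was 2 without DMSO replicate 2, without AZ5576 replicate 2 or without YKL5124 replicate 2, and 0 with fly spike-in scaling. The 3 comparisons share the DMSO libraries, so their values stand side by side and are not independent of one another. In bulk RNA, fewer cells with a transcript and less of it per cell cannot be told apart.

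**Figure D1:**
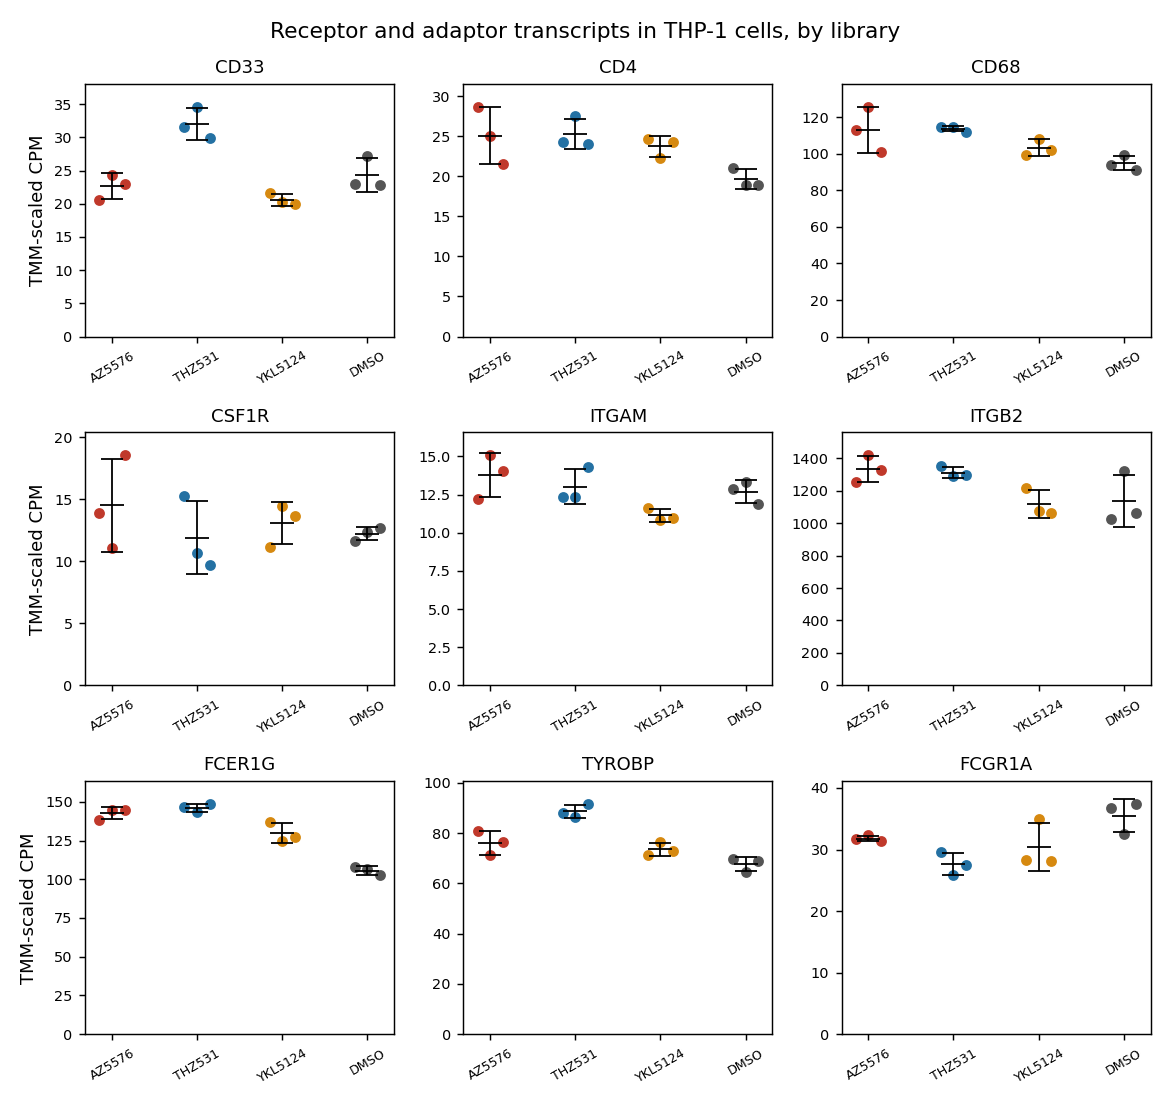
TMM-scaled CPM of the 9 tested genes in each library, with the groups AZ5576, THZ531, YKL5124 and DMSO from left to right. Points are libraries, and bars are the mean and SD of 3. FCER1G is higher in all inhibitor libraries than in any DMSO library, CD33 is high in THZ531, and FCGR1A is low in THZ531.

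FCER1G (ENSG00000158869), the common gamma chain of Fc receptors, lies on the plus strand of chromosome 1 at 161215234 to 161220699 (GRCh38, as are all coordinates here, with GENCODE v29 annotation). It had 138, 145 and 145 CPM in AZ5576, 146, 143 and 148 CPM in THZ531, and 137, 125 and 127 CPM in YKL5124. DMSO libraries had 108, 107 and 102 CPM. No inhibitor library overlapped a DMSO library. On the log2 scale it rose by 0.43 under AZ5576 (adjusted p = 1.62e-06), 0.47 under THZ531 (adjusted p = 1.33e-07) and 0.30 under YKL5124 (adjusted p = 0.000644), each with an SE of 0.06, all from edgeR's quasi-likelihood test with Benjamini-Hochberg adjustment. These are 1.35-fold, 1.38-fold and 1.23-fold levels. All 3 calls held when any 1 library was left out, and all 3 were lost with fly spike-in scaling, where the log2 fold changes were 0.24, 0.11 and 0.23.

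A further FCER1G transcript, FCER1G-202, ends 1451 bases downstream of the main one. The last 30 bases of both annotated transcripts are shown because each transcript has a row of its own in the table, with the cleavage signal AATAAA in capitals. Which stretch of a transcript a row counts is not given, so the reads of a row are not shown to come from that end.
FCER1G-201, chr1:161219219-161219248, plus strand: cccccAATAAAactgccatggactggactc
FCER1G-202, chr1:161220670-161220699, plus strand: ttaaagataaagtgggAATAAActtttatt
AATAAA was searched on the transcript strand, and 30.6% of the 83064 protein-coding transcripts hold it in their last 30 bases. The FCER1G-202 row held 473 reads in the 12 libraries. This row, like those of CD33 below, was singled out after its values were seen.

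The FCER1G-202 row had 4.31, 4.75 and 5.68 CPM in AZ5576, 5.34, 4.30 and 5.67 CPM in THZ531, and 2.91, 3.63 and 3.83 CPM in YKL5124. In DMSO it had 2.44, 2.85 and 1.73 CPM. Each inhibitor library was above every DMSO library. In a fit over 46604 rows, it rose under AZ5576 (log2 fold change 1.08, SE 0.22, adjusted p = 0.000326) and under THZ531 (1.13, SE 0.22, adjusted p = 7.27e-05). In that fit 29.7% of rows were called for AZ5576 and 53.8% for THZ531. YKL5124 gave a log2 difference of 0.59 (SE 0.23, adjusted p = 0.0972), in a comparison where 12.6% of rows were called. Both calls held with fly spike-in scaling, at 0.92 and 0.78, and without any 1 library.

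As a share of the reads of the FCER1G-201 row, called the main row here because its counts were within a few reads of those of the row used for the gene, FCER1G-202 stood at 3.44% ± 0.42 in AZ5576, 3.49% ± 0.43 in THZ531, 2.68% ± 0.49 in YKL5124 and 2.21% ± 0.50 in DMSO (SD, n = 3). No scaling changes these shares. The exact two-sided permutation test gave p = 0.1 for AZ5576 and for THZ531, which is the smallest p that 3 against 3 libraries allow, and p = 0.3 for YKL5124.

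TYROBP (ENSG00000011600), the adaptor known as DAP12 that signals for TREM and SIRP beta receptors, lies on the minus strand of chromosome 19 at 35904401 to 35908295. Its levels were 80.8, 71.1 and 76.3 CPM in AZ5576, 88.0, 86.6 and 91.5 CPM in THZ531, and 71.4, 76.3 and 73.0 CPM in YKL5124. DMSO libraries had 69.7, 64.5 and 69.0 CPM. THZ531 stood clear of the other 3 groups, and AZ5576 and YKL5124 lay just above DMSO without overlap. The log2 fold change was 0.39 under THZ531 (SE 0.07, adjusted p = 1.39e-05). The rise under AZ5576 was 0.17 (SE 0.07, adjusted p = 0.0426). That call did not survive the removal of any DMSO library (0.14 to 0.19), of AZ5576 replicate 1 (0.13) or of AZ5576 replicate 3 (0.18), nor the replicate block (0.17). YKL5124 gave 0.12 (interval -0.02 to 0.26, adjusted p = 0.24).

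Under fly spike-in scaling the THZ531 value of TYROBP was 0.02 and the AZ5576 value -0.02. The transcript ends 24 bases from the end of HCST, the adaptor gene DAP10 on the other strand, and the strand setting of the counting is not given in the sources used here. HCST had 9.11, 11.1 and 8.18 CPM in AZ5576, 11.7, 9.48 and 12.9 CPM in THZ531, 7.27, 8.39 and 12.2 CPM in YKL5124, and 8.82, 8.09 and 11.3 CPM in DMSO, and it was called in none of the 3 comparisons.

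FCGR1A (ENSG00000150337) on the plus strand of chromosome 1 at 149782671 to 149792518 was low in THZ531, where its adaptor FCER1G was high. It had 31.6, 32.3 and 31.4 CPM in AZ5576, 29.6, 25.9 and 27.5 CPM in THZ531, and 28.2, 35.0 and 28.1 CPM in YKL5124. DMSO libraries had 36.8, 32.5 and 37.3 CPM. The THZ531 libraries lay below all DMSO libraries, and so did the AZ5576 libraries by a narrow gap, while YKL5124 overlapped DMSO. Under THZ531 it fell by 0.37 (log2, SE 0.09, adjusted p = 0.00114), a 1.29-fold lower level. It passed in each of the 22 alternatives run, which spanned -0.73 to -0.33. AZ5576 gave -0.17 (SE 0.09, adjusted p = 0.146) and YKL5124 -0.22 (SE 0.09, adjusted p = 0.0815). The AZ5576 value was called with fly spike-in scaling (-0.35, adjusted p = 0.0256), and the YKL5124 value was called without YKL5124 replicate 2 (-0.34) or without DMSO replicate 2 (-0.28).

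FCGR1A has near-identical copies, FCGR1B and FCGR1CP, between which short reads may be split, so the source of these reads is uncertain. Both copies fell under all 3 inhibitors. FCGR1CP had 95.1, 89.7 and 92.4 CPM in AZ5576, 73.4, 83.8 and 73.7 CPM in THZ531, 83.4, 91.6 and 83.7 CPM in YKL5124, and 112, 128 and 106 CPM in DMSO. Its log2 fold changes were -0.31 (adjusted p = 0.00117), -0.58 (adjusted p = 9.82e-08) and -0.41 (adjusted p = 9.18e-05), and no inhibitor library reached the DMSO range. FCGR1B gave -0.39 under AZ5576 (adjusted p = 0.00109), -0.78 under THZ531 (adjusted p = 4.29e-08) and -0.32 under YKL5124 (adjusted p = 0.00967).

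ITGB2 (ENSG00000160255), the shared chain of the leukocyte integrins, lies on the minus strand of chromosome 21 at 44885953 to 44931989 and overlaps the antisense gene ITGB2-AS1. Its levels were 1253, 1417 and 1328 CPM in AZ5576, 1349, 1291 and 1294 CPM in THZ531, and 1216, 1074 and 1064 CPM in YKL5124. In DMSO they were 1023, 1321 and 1065 CPM. DMSO replicate 2 was as high as the AZ5576 and THZ531 libraries, so these groups overlapped. The log2 fold change was 0.23 under AZ5576 (SE 0.07, adjusted p = 0.011), 0.21 under THZ531 (SE 0.07, adjusted p = 0.0134) and -0.02 under YKL5124 (interval -0.17 to 0.12, adjusted p = 0.864). Leaving out DMSO replicate 1 or 3 ended the call for AZ5576 (0.16 and 0.18) and for THZ531 (0.14 and 0.16), and so did leaving out THZ531 replicate 1 for THZ531 (0.16). Scaled by the fly reads, the AZ5576 value was 0.04 and the THZ531 value -0.15.

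ITGAM (ENSG00000169896), on the plus strand of chromosome 16 at 31259967 to 31332892, encodes the alpha chain that pairs with ITGB2. It had 12.2, 15.1 and 14.0 CPM in AZ5576, 12.4, 12.4 and 14.3 CPM in THZ531, and 11.6, 10.8 and 11.0 CPM in YKL5124. DMSO libraries had 12.9, 13.3 and 11.9 CPM. AZ5576 and THZ531 spread across the DMSO range, and YKL5124 lay just below it. None of the 3 differences passed, with log2 values of 0.10 for AZ5576 (interval -0.15 to 0.34), 0.04 for THZ531 (-0.20 to 0.29) and -0.19 for YKL5124 (-0.43 to 0.06). The intervals bound each difference and do not show that the levels were alike.

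CD33 (ENSG00000105383) lies on the plus strand of chromosome 19 at 51225064 to 51243860. It had 20.5, 24.4 and 23.0 CPM in AZ5576, 31.6, 34.6 and 29.8 CPM in THZ531, and 21.6, 20.2 and 19.9 CPM in YKL5124. The DMSO values were 23.0, 27.2 and 22.8 CPM. THZ531 was above every other library, YKL5124 was below every DMSO library, and AZ5576 overlapped DMSO. The rise under THZ531 was 0.40 on the log2 scale (SE 0.10, adjusted p = 0.000529), or 1.32-fold, and it was 0.04 with no call under fly spike-in scaling. AZ5576 gave -0.12 (SE 0.10, adjusted p = 0.362) and YKL5124 -0.24 (SE 0.10, adjusted p = 0.0852).

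Other CD33 transcripts end elsewhere, and their rows did not follow the main one. CD33-204 ends 3444 bases before the main end, because its last exon (51235595 to 51236572) starts where exon 6 of CD33-201 starts and runs past the end of that exon at 51235676 into the intron. CD33-205 ends 3844 bases after the main end. The last 30 bases of each are shown so that the 3 annotated ends can be told apart, again with AATAAA in capitals.
CD33-204, chr19:51236543-51236572, plus strand: tattagctctagaaatctactatccttggg
CD33-201, chr19:51239987-51240016, plus strand: attaAATAAAggtacacatggaaaacacca
CD33-205, chr19:51243831-51243860, plus strand: cgtgattttacatcAATAAAaaaaaataat
These letters are absent from the last 30 bases of CD33-204, which says only that they are not in this window. The 2 rows held 534 and 629 reads in all 12 libraries.

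The CD33-204 row had 1.68, 1.19 and 2.34 CPM in AZ5576, 4.82, 4.96 and 3.96 CPM in THZ531, and 5.09, 4.57 and 3.91 CPM in YKL5124. Values in DMSO were 6.67, 6.09 and 5.35 CPM. These levels rest on few reads, 21, 6 and 28 in AZ5576 and 90, 64 and 68 in DMSO. AZ5576 stood below all other libraries, and the THZ531 and YKL5124 libraries lay below DMSO. Under AZ5576 its log2 fold change was -1.70 (SE 0.22, adjusted p = 4.57e-07), a 3.25-fold lower level, and it passed with fly spike-in scaling (-1.87), with library size alone (-1.85) and without any 1 library (-1.98 to -1.59). Values for THZ531 (-0.40, adjusted p = 0.078) and YKL5124 (-0.43, adjusted p = 0.139) did not pass, though THZ531 did with fly spike-in scaling (-0.76). AZ5576 was lower than THZ531 (log2 fold change -1.30, SE 0.25, adjusted p = 4.62e-05) and lower than YKL5124 (-1.27, SE 0.24, adjusted p = 0.000488), comparisons in which 46.5% and 9.48% of rows were called, and both held in all 15 alternatives run on rows.

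Set against the CD33-201 row, the main row in the same sense, the CD33-204 row came to 7.79% ± 2.66 in AZ5576, 14.4% ± 1.09 in THZ531, 22.1% ± 1.98 in YKL5124 and 25.2% ± 3.64 in DMSO (SD, n = 3). AZ5576 and THZ531 libraries were all below the DMSO libraries (exact two-sided permutation p = 0.1 each, the smallest possible), and YKL5124 overlapped them (p = 0.4). In THZ531 the main row itself was high, which lowers this share.

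The CD33-205 row had 4.47, 9.51 and 6.68 CPM in AZ5576, 3.91, 4.08 and 4.17 CPM in THZ531, and 6.67, 5.87 and 5.99 CPM in YKL5124. DMSO libraries had 4.00, 4.00 and 4.17 CPM. AZ5576 and YKL5124 were above DMSO in each library, and THZ531 was level with it. The AZ5576 rise was 0.66 on the log2 scale (SE 0.20, adjusted p = 0.0125) and its call was lost without AZ5576 replicate 2 (0.45) or 3 (0.62) and with fly spike-in scaling (0.49). The YKL5124 rise of 0.60 (SE 0.20, adjusted p = 0.0445) was lost when any library of DMSO, THZ531 or YKL5124 was left out (0.55 to 0.63), with the replicate block (0.59) and with fly spike-in scaling (0.54). Set against the main row, the CD33-205 row came to 30.2% ± 8.70 in AZ5576, 12.8% ± 1.12 in THZ531, 30.2% ± 0.81 in YKL5124 and 17.0% ± 1.98 in DMSO (SD, n = 3; exact two-sided permutation p = 0.1 for each inhibitor, the smallest possible).

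**Figure D2:**
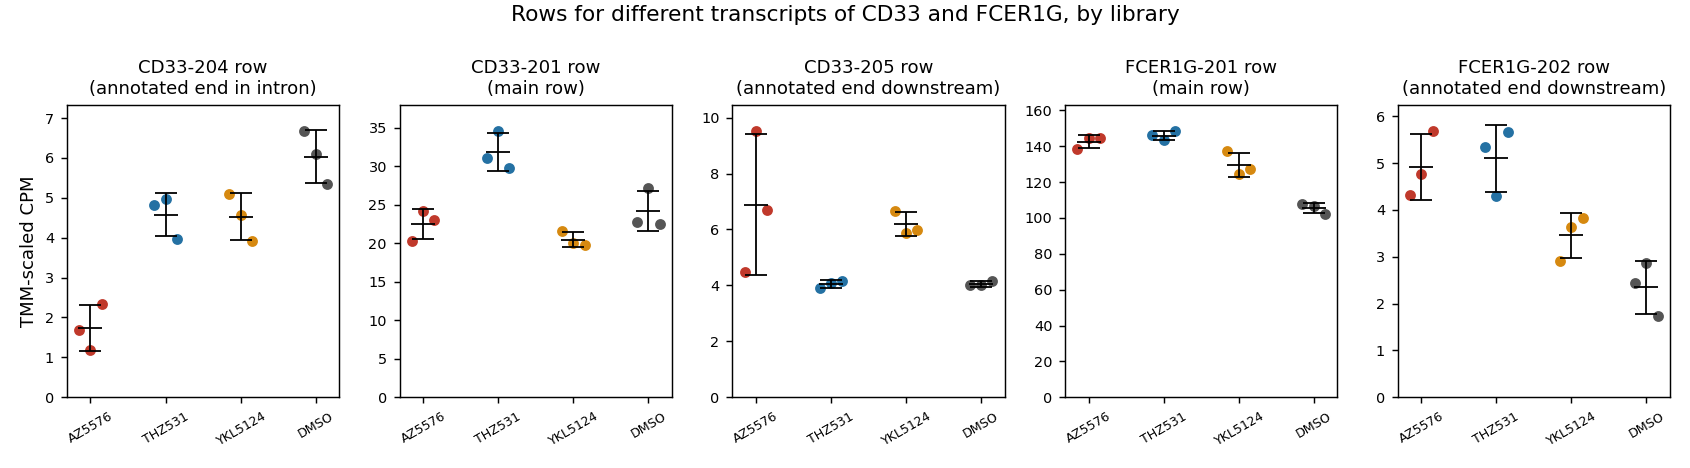
TMM-scaled CPM of the rows for 3 CD33 transcripts and 2 FCER1G transcripts in each library, with AZ5576, THZ531, YKL5124 and DMSO from left to right in each panel. Points are libraries, and bars are the mean and SD of 3. The CD33-204 row is lowest in AZ5576, the CD33-201 row is highest in THZ531, and the CD33-205 row is higher in AZ5576 and YKL5124 than in THZ531 and DMSO.

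CSF1R (ENSG00000182578) lies on the minus strand of chromosome 5 at 150053291 to 150113372. It had 13.9, 11.1 and 18.5 CPM in AZ5576, 15.2, 10.7 and 9.73 CPM in THZ531, and 11.2, 14.4 and 13.7 CPM in YKL5124. DMSO libraries had 11.6, 12.4 and 12.7 CPM. Inhibitor libraries spread widely and overlapped DMSO in each group. No difference from DMSO passed, with log2 values of 0.30 for AZ5576 (interval -0.01 to 0.61, adjusted p = 0.111), -0.05 for THZ531 (-0.38 to 0.27, adjusted p = 0.781) and 0.11 for YKL5124 (-0.20 to 0.42, adjusted p = 0.666). The AZ5576 value passed without AZ5576 replicate 2 (0.41), and the THZ531 value with fly spike-in scaling (-0.42).

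CD4 (ENSG00000010610), on the plus strand of chromosome 12 at 6786858 to 6820808, had 28.7, 25.0 and 21.5 CPM in AZ5576, 24.2, 27.5 and 24.1 CPM in THZ531, and 24.6, 22.3 and 24.2 CPM in YKL5124. DMSO libraries had 21.0, 18.9 and 18.9 CPM, below all inhibitor libraries. The log2 fold change was 0.35 under AZ5576 (SE 0.10, adjusted p = 0.0076), 0.36 under THZ531 (SE 0.11, adjusted p = 0.00372) and 0.27 under YKL5124 (SE 0.10, adjusted p = 0.0667). The AZ5576 call was lost without AZ5576 replicate 1 (0.22) and the THZ531 call without THZ531 replicate 2 (0.27), while the YKL5124 value passed without AZ5576 replicate 2 (0.28), with RLE scaling (0.30) and with upper quartile scaling (0.33). Scaled by the fly reads, AZ5576 stood at 0.17 and THZ531 at -0.00065, with no call.

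CD68 (ENSG00000129226), on the plus strand of chromosome 17 at 7579467 to 7582113, has a last exon that overlaps other annotated genes. It had 113, 126 and 101 CPM in AZ5576, 114, 115 and 112 CPM in THZ531, and 99.2, 108 and 102 CPM in YKL5124. The DMSO values were 94.1, 99.1 and 91.3 CPM. Each inhibitor library was above the DMSO libraries, by a narrow gap in YKL5124. Rises were 0.24 on the log2 scale under AZ5576 (SE 0.07, adjusted p = 0.00683) and 0.26 under THZ531 (SE 0.07, adjusted p = 0.00194), and both held without any 1 library. YKL5124 gave 0.12 (interval -0.02 to 0.27, adjusted p = 0.235). Scaled by the fly reads, the values were 0.06 for AZ5576 and -0.10 for THZ531.

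CD14 (ENSG00000170458), on the minus strand of chromosome 5 at 140631728 to 140633701, gave 16 reads over the 12 libraries, with 0 to 6 in a library. This count was under the filter, so no difference was detectable at this depth.

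**Figure D3:**
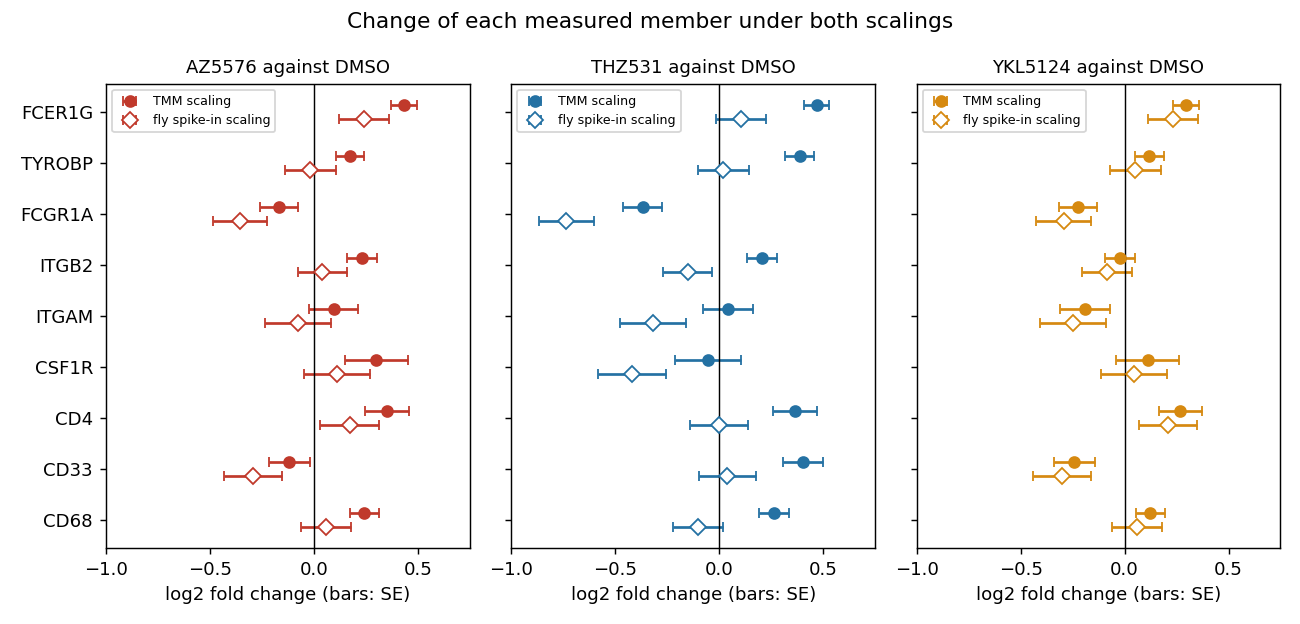
Log2 fold change of the 9 tested genes for AZ5576, THZ531 and YKL5124, each against DMSO, with TMM scaling (filled circles) and fly spike-in scaling (open diamonds). Bars are standard errors. FCER1G is right of 0 in every panel, FCGR1A is left of 0 in every panel, and fly scaling moves the THZ531 values furthest to the left.

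The scaling decided whether most rises passed the test. Of the 12 rises called against DMSO, 0 were called with fly spike-in scaling, where 4 changed sign and 8 did not, and 3, those of FCER1G, were called with library size alone. All 12 were called with RLE and with upper quartile scaling. Human counts, taken from 1 row per gene, were divided by fly counts summed over all fly rows. The quotient was 7.97 to 9.27 in AZ5576, 8.57 to 9.21 in THZ531, 8.62 to 9.33 in YKL5124 and 8.47 to 10.6 in DMSO, and these ranges overlapped. Fly rows may count a read more than once, so it serves to compare libraries and is not the proportion of human to fly reads. Scaling by the fly reads moved the median log2 fold change of all genes to -0.17 for AZ5576, -0.37 for THZ531 and -0.07 for YKL5124, and library size alone moved it to -0.12, -0.29 and -0.02. Among called genes the share called higher was 44.7% with TMM and 10.3% with fly scaling for AZ5576, and 48% and 13.2% for THZ531. With fly scaling FCER1G was at 0.24 under AZ5576 and 0.11 under THZ531, and FCGR1A at -0.35 and -0.73. Fly scaling shifts all genes of a comparison nearly alike, so a gene's distance from the fly median only repeats its TMM value.

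Between inhibitors, the same 9 genes were compared for 3 pairs, with p-values adjusted over all 15831 genes of each pair. The doses are not given, so these are differences between treatments and not between matched doses. AZ5576 and THZ531 differed at 2 genes, CD33 and TYROBP, both lower in AZ5576, where 55% of all genes were called, 27.8% as higher and 27.1% as lower. CD33 had a log2 difference of -0.52 (SE 0.10, adjusted p = 5.22e-05), which passed in all 22 alternatives (-0.54 to -0.33). TYROBP was also lower in AZ5576, by -0.21 (SE 0.07, adjusted p = 0.0102), which was lost without AZ5576 replicate 2 (-0.14), THZ531 replicate 1 (-0.18) or THZ531 replicate 3 (-0.15), and with upper quartile scaling (-0.16), library size alone (-0.045) or fly spike-in scaling (-0.038). FCER1G gave -0.04 (interval -0.16 to 0.09) and CD68 -0.02 (-0.17 to 0.13) between these inhibitors. CSF1R gave 0.36 (0.03 to 0.68, adjusted p = 0.0597) and FCGR1A 0.20 (-0.00 to 0.40, adjusted p = 0.0851), and both were called with fly spike-in scaling, at 0.53 and 0.38. Without THZ531 replicate 3 the count was 1, and with library size alone it was 4.

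AZ5576 and YKL5124 differed at 1 gene, in a comparison where 15.8% of all genes were called, 6.23% as higher and 9.6% as lower. ITGB2 was higher in AZ5576, with a log2 difference of 0.25 (SE 0.07, adjusted p = 0.0152), and the call was lost without AZ5576 replicate 2 (0.20), YKL5124 replicate 2 (0.23) or YKL5124 replicate 3 (0.22), with library size alone (0.15) and with fly spike-in scaling (0.13). FCER1G gave 0.14 (interval 0.01 to 0.26, adjusted p = 0.138) and ITGAM 0.28 (0.03 to 0.54, adjusted p = 0.117).

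With TMM, THZ531 and YKL5124 differed at 4 genes, all higher in THZ531, where 61% of all genes were called, 30.5% in each direction. CD33 had the largest difference among the 9, with a log2 value of 0.64 (SE 0.10, adjusted p = 1.91e-06), a 1.56-fold higher level that passed in all 22 alternatives (0.34 to 0.68). TYROBP differed by 0.27 (SE 0.07, adjusted p = 0.00127), ITGB2 by 0.23 (SE 0.07, adjusted p = 0.00676) and FCER1G by 0.17 (SE 0.06, adjusted p = 0.017). Scaled by the fly reads, TYROBP was at -0.03, ITGB2 at -0.07 and FCER1G at -0.13, with no call. CSF1R (-0.17) and FCGR1A (-0.14) were not called with TMM. Both were called lower in THZ531 with fly spike-in scaling and with library size alone, with values down to -0.46 and -0.44. CSF1R was called lower without THZ531 replicate 1 too. The ITGB2 call was lost without THZ531 replicate 1 (0.17), and the FCER1G call in 6 of 12 fits that each left out 1 library (0.12 to 0.16), with upper quartile scaling (0.11) and with the 6 libraries compared alone (0.12).

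Partner genes of the same pathways were counted from lists, with the members left out. For reading these counts, all genes tested were called higher in 18.6%, 30.4% and 7.25% and lower in 23.1%, 32.9% and 13.5% for AZ5576, THZ531 and YKL5124 with TMM. With fly scaling they were called higher in 3.27%, 7.05% and 3.35% and lower in 28.5%, 46.5% and 12.5%. Of 4 other Fc receptors and ITAM adaptors counted, 1 rose under AZ5576, 2 under THZ531 and 0 under YKL5124, and 0 fell. FCGR1B, which fell under each inhibitor as given above, was not among these 4, so the counts and medians here leave it out. FCGRT, the neonatal Fc receptor that recycles IgG, rose under AZ5576 (log2 fold change 0.26, SE 0.07) and THZ531 (0.37, SE 0.07), and FCGR2A, which carries an ITAM of its own and resembles FCGR2B and FCGR2C, rose under THZ531 (0.48, SE 0.11). Under YKL5124 0 of the 4 passed at an unadjusted p under 0.05 either, and with fly spike-in scaling 0 of the 4 were called under any inhibitor. Their medians were 0.24, 0.42 and 0.13 for AZ5576, THZ531 and YKL5124.

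A list of SIRP, TREM, LILR, CD300 and related receptors, of which only some couple to TYROBP, had 11 measured genes. Of these, 1 rose and 1 fell under AZ5576, 2 rose and 3 fell under THZ531, and 1 rose and 1 fell under YKL5124. With fly spike-in scaling 0 rose under any inhibitor and 3, 7 and 0 fell. CD300LF, an inhibitory receptor, fell under AZ5576 (-0.61, SE 0.11) and THZ531 (-0.30, SE 0.11). SIRPA, the receptor for CD47, fell under THZ531 (-0.68, SE 0.08). LILRB4, an inhibitory receptor of monocytes, rose under AZ5576 (0.25, SE 0.07), THZ531 (0.39, SE 0.07) and YKL5124 (0.22, SE 0.07) and was not called with fly spike-in scaling. LILRA2 fell under YKL5124 (-0.23, SE 0.08), and the LILR and SIRP genes are alike enough in sequence that reads may be shared.

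Downstream of ITAMs, 8 of 29 kinases and adaptors rose and 4 fell under AZ5576, 4 rose and 14 fell under THZ531, and 4 rose and 2 fell under YKL5124. These counts were 1 and 8, 2 and 19, and 0 and 1 with fly spike-in scaling. SYK, the kinase that binds phosphorylated ITAMs, had 139, 147 and 151 CPM in AZ5576, 76.8, 71.4 and 69.0 CPM in THZ531, and 150.3, 142 and 143 CPM in YKL5124. DMSO libraries had 122, 115 and 118 CPM. It rose under AZ5576 (0.30, SE 0.06, adjusted p = 0.000389) and YKL5124 (0.29, SE 0.06, adjusted p = 0.000975) and fell under THZ531 (-0.71, SE 0.07, adjusted p = 1.24e-10), and with fly spike-in scaling only the fall was called (-1.08). PIK3R1, a regulatory subunit of PI3-kinase, had 101, 92.7 and 102 CPM in AZ5576, 65.0, 64.4 and 66.8 CPM in THZ531, and 155, 157 and 167 CPM in YKL5124, against 190.3, 169 and 192 CPM in DMSO. It fell under AZ5576 (-0.89, SE 0.07) and THZ531 (-1.49, SE 0.07) with both scalings, and under YKL5124 with TMM alone of these (-0.20, SE 0.06). PAG1, which holds the Src inhibitor CSK at the membrane, fell under AZ5576 (-0.63, SE 0.08), THZ531 (-0.71, SE 0.08) and YKL5124 (-0.36, SE 0.08). CARD9, an adaptor downstream of SYK, rose under AZ5576 (0.32, SE 0.08) and THZ531 (0.98, SE 0.08), and only the THZ531 rise was called with fly spike-in scaling (0.61).

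The integrin list held 16 measured genes of beta 2 and beta 1 integrins and of their activators and ligands. Of these, 8 rose and 1 fell under AZ5576, 7 rose and 3 fell under THZ531, and 4 rose and 0 fell under YKL5124. With fly spike-in scaling these counts were 0 and 4, 2 and 5, and 0 and 0. ITGAL, the alpha chain of LFA-1, rose under AZ5576 (0.41, SE 0.10) and YKL5124 (0.36, SE 0.10). FERMT3 (kindlin-3), an integrin activator, rose under AZ5576 (0.34, SE 0.08) and THZ531 (0.29, SE 0.08). ICAM3, an integrin ligand, rose under AZ5576 (0.22, SE 0.08), THZ531 (0.32, SE 0.08) and YKL5124 (0.26, SE 0.08). FLNA, the actin crosslinker filamin A that binds integrin tails, rose under AZ5576 (0.27, SE 0.07) and THZ531 (0.72, SE 0.07). ITGB1, the beta 1 chain, rose under AZ5576 (0.22, SE 0.08) and THZ531 (0.64, SE 0.07). Of these rises, those of FLNA and ITGB1 under THZ531 were called with fly spike-in scaling too (0.36 and 0.28).

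Although CD14 could not be tested, 20 genes of the TLR4 pathway it serves and of other Toll-like receptors were measured. Of these, 7 fell under AZ5576, 11 under THZ531 and 6 under YKL5124, with 1, 1 and 0 that rose. Over all genes tested the shares that fell were 23.1%, 32.9% and 13.5%. The list's median log2 fold changes were -0.23, -0.42 and -0.17, and with fly spike-in scaling 9, 17 and 6 fell, against 28.5%, 46.5% and 12.5% of all genes. TLR4 had 6.71, 9.11 and 9.10 CPM in AZ5576, 8.07, 7.39 and 8.88 CPM in THZ531, and 10.5, 10.2 and 13.1 CPM in YKL5124. DMSO libraries had 16.4, 17.3 and 15.1 CPM, above all inhibitor libraries. Its log2 fold changes were -0.995 for AZ5576 (SE 0.14, adjusted p = 8.38e-07), -0.998 for THZ531 (SE 0.14, adjusted p = 3.33e-07) and -0.52 for YKL5124 (SE 0.13, adjusted p = 0.00345). TICAM1, the adaptor TRIF, fell under AZ5576 (-0.83, SE 0.12), THZ531 (-0.26, SE 0.11) and YKL5124 (-0.38, SE 0.11). TAB1, a partner of the kinase TAK1, fell under THZ531 (-2.19, SE 0.15), while TOLLIP, an inhibitor of the pathway, rose there (0.89, SE 0.07). TLR6 and TLR2, which pair on the cell surface, fell under all 3 inhibitors. In the order AZ5576, THZ531 and YKL5124 the log2 fold changes were -1.139, -0.58 and -1.08 for TLR6 (SE 0.20 to 0.22) and -0.62, -0.37 and -0.75 for TLR2 (SE 0.15).

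Around CSF1R, 5 of 24 ligands, cytokine receptors and signalling genes rose and 2 fell under AZ5576, 8 rose and 7 fell under THZ531, and 3 rose and 2 fell under YKL5124. With fly spike-in scaling 0 rose under any inhibitor and 6, 11 and 1 fell. SLA, an adaptor of receptor turnover, had 8.63, 10.1 and 11.4 CPM in AZ5576, 8.20, 8.93 and 6.63 CPM in THZ531, and 17.1, 16.3 and 17.0 CPM in YKL5124. DMSO libraries had 32.3, 30.5 and 32.0 CPM, and no inhibitor library came near this range. Its log2 fold changes were -1.66 (SE 0.11), -2.00 (SE 0.12) and -0.91 (SE 0.10), called with fly spike-in scaling too. GRB2, an adaptor of receptor tyrosine kinases, rose under AZ5576 (0.39, SE 0.06), THZ531 (0.37, SE 0.06) and YKL5124 (0.23, SE 0.06) and lost these calls with fly spike-in scaling. SOS1, the Ras activator bound by GRB2, fell under THZ531 (-2.44, SE 0.17).

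Of 6 other Siglecs measured, 1 rose and 1 fell under AZ5576, 1 rose and 3 fell under THZ531, and 1 rose and 0 fell under YKL5124, where 1 was lower at an unadjusted p under 0.05. Scaled by the fly reads, 1, 0 and 0 rose and 1, 4 and 0 fell. SIGLEC1, the macrophage receptor sialoadhesin, rose under AZ5576 (1.01, SE 0.27), THZ531 (0.77, SE 0.28) and YKL5124 (0.76, SE 0.28), and only the AZ5576 rise was called with fly spike-in scaling (0.84). SIGLEC1 levels were low, at 1.63, 1.33 and 1.49 CPM in DMSO. SIGLEC14, which shares sequence with SIGLEC5, fell under AZ5576 (-1.23, SE 0.45) and THZ531 (-1.137, SE 0.45), and SIGLEC11 fell under THZ531 (-0.67, SE 0.24). SIGLEC14 had 1.41, 1.52 and 1.18 CPM in DMSO and under 1 CPM in every AZ5576 and THZ531 library. It passed the count filter through the DMSO libraries, so its falls, counted above, were favoured by the filter. With the rise of CD33 under THZ531 the list held members that moved in both directions.

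Beside CD68, 4 of 10 genes of the lysosome membrane and scavenger receptors rose and 0 fell under AZ5576, 5 rose and 4 fell under THZ531, and 0 were called under YKL5124 by edgeR. At an unadjusted p under 0.05, 1 was higher and 1 lower there, with MARCO, a scavenger receptor, at -1.05 (SE 0.38, adjusted p = 0.0504) and TMEM192, a lysosome membrane protein, at 0.14 (SE 0.07, adjusted p = 0.137). With fly spike-in scaling 0, 1 and 0 rose and 0, 4 and 1 fell. LAMP1 and LAMP2, abundant lysosome membrane proteins, rose under AZ5576 by 0.32 (SE 0.06) and 0.35 (SE 0.07) and under THZ531 by 0.58 (SE 0.06) and 0.49 (SE 0.06), without a call for either with fly spike-in scaling. SCARB2, the lysosomal receptor LIMP-2, had 16.8, 19.2 and 20.7 CPM in AZ5576, 42.3, 45.6 and 45.1 CPM in THZ531, and 20.7, 15.8 and 19.0 CPM in YKL5124, against 17.4, 17.8 and 18.3 CPM in DMSO. Its rise under THZ531 was 1.31 on the log2 scale (SE 0.10, adjusted p = 8.76e-13) and 0.95 with fly spike-in scaling.

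Among 8 partners of CD4, 2 rose and 1 fell under AZ5576, 5 rose and 1 fell under THZ531, and 0 rose and 1 fell under YKL5124, where 1 was higher at an unadjusted p under 0.05. With fly spike-in scaling 1, 0 and 0 rose and 1, 1 and 1 fell. CXCR4, the chemokine receptor that serves with CD4 as an HIV receptor, had 10.1, 10.7 and 8.93 CPM in AZ5576, 76.3, 79.2 and 81.1 CPM in THZ531, and 17.6, 14.9 and 16.7 CPM in YKL5124. DMSO libraries had 55.3, 56.1 and 55.3 CPM. All 4 groups stood apart, with THZ531 above DMSO and the other inhibitors below it. The log2 fold change was -2.50 under AZ5576 (SE 0.09, adjusted p = 8.23e-19), 0.51 under THZ531 (SE 0.07, adjusted p = 5.27e-07) and -1.77 under YKL5124 (SE 0.09, adjusted p = 9.98e-16), and with fly spike-in scaling the THZ531 value was 0.14 without a call. HLA-DRB1, a class II beta chain with close paralogs, rose under THZ531 (0.49, SE 0.08). HLA-DMB, a chain of the peptide-loading HLA-DM, was called higher under AZ5576 (2.88, SE 0.53) at low levels. It had 1.04, 2.18 and 1.59 CPM in AZ5576 and 0.222, 0.190 and 0.157 CPM in DMSO. All DMSO, THZ531 and YKL5124 libraries lay under 1 CPM, so HLA-DMB passed the count filter through AZ5576 alone. Its rise there, counted among the 2 above, was thus favoured by the filter. The YKL5124 value of HLA-DMB was 1.55 (SE 0.64, adjusted p = 0.0867).

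Median log2 fold changes of the other lists follow in the order AZ5576, THZ531 and YKL5124. The list of SIRP, TREM, LILR, CD300 and related receptors had -0.02, -0.08 and -0.09. For kinases and adaptors of ITAMs the medians were 0.03, -0.20 and 0.02, and for the integrin list 0.20, 0.12 and 0.10. They were 0.14, 0.05 and 0.08 around CSF1R and 0.12, -0.84 and -0.31 for Siglecs. For lysosome and scavenger genes they were 0.07, -0.08 and 0.07, and for CD4 partners 0.17, 0.38 and 0.10. The medians over all genes tested were within 0.01 of 0. Every list median was lower with fly spike-in scaling, down to -1.19 for Siglecs under THZ531.

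**Figure D4:**
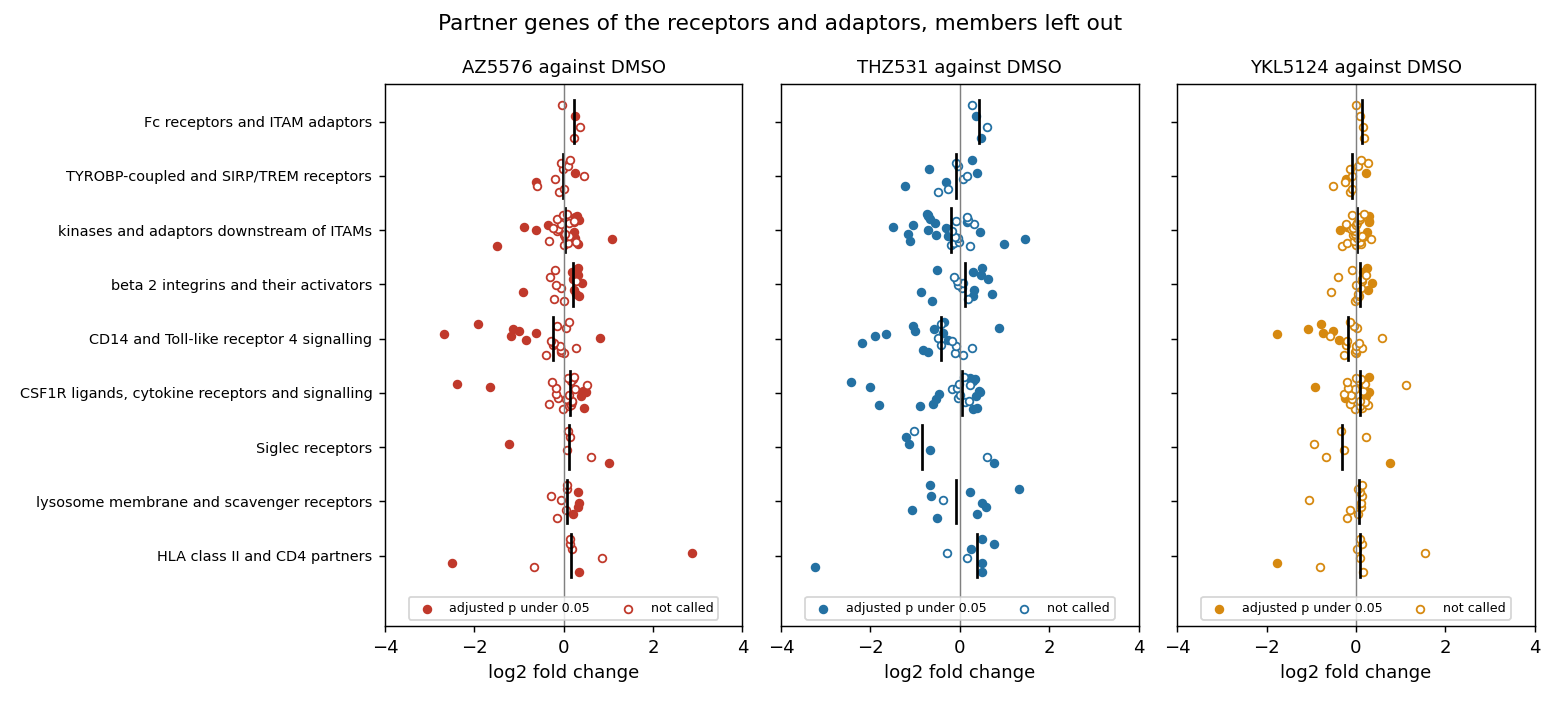
Log2 fold change of partner genes in 9 lists for AZ5576, THZ531 and YKL5124, each against DMSO, with TMM scaling. Filled points passed the test at an adjusted p under 0.05, open points did not, and black bars are list medians. The median of the TLR4 list is left of 0 in every panel, and CXCR4 in the lowest list is far left under AZ5576 and YKL5124 and right of 0 under THZ531.

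Some genes followed the same pattern over the libraries. Among 7315 protein-coding genes averaging 10 CPM or more, the gene most like each member by Pearson's r of log2 CPM over the 12 libraries was ERP44 for FCER1G (0.98), GPI for TYROBP (0.98), MAPKAPK5 for FCGR1A (0.98), HK2 for CD33 (0.98), RPL7 for ITGB2 (0.96) and RBFOX2 for CD68 (0.94). CD4 was most like SAR1A (0.88), CSF1R most like KIF1C (0.86) and ITGAM most like GMCL1 (0.84). Next in rank came SULT1A1 and BCAT1 for FCER1G, RPS4X and SNRPN for TYROBP, and RNPS1 and ORC6 for CD33. RPL3 and MGST3 followed for ITGB2, MGST1 and LTA4H for CD68, TRIM44 and TP53I13 for CD4, C11orf49 and GMPPA for CSF1R, and MAFG and CCT3 for ITGAM. All points share the libraries and their scaling, so these values are a description.

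The 3' untranslated regions were 128 bases in CD14, 166 in TYROBP, 305 in FCER1G, 328 in CD33, 415 in ITGB2, 602 in CD68, 778 in CSF1R, 1001 in FCGR1A, 1185 in ITGAM and 1479 in CD4, and 9 of 10 were under the median of 1242 bases over 11553 protein-coding genes. The AU-rich pentamer ATTTA, searched on the transcript strand, was absent from 4 of 10, those of CD14, TYROBP, CSF1R and FCGR1A, against 28.95% of all genes. ITGB2 held 3 copies, ITGAM 2, and CD33, CD4, CD68 and FCER1G 1 each. These counts and shares were not adjusted for the length of the region. Each region was read from 1 protein-coding transcript per gene, which was not always that of the row tested. For TYROBP it was TYROBP-205 and not TYROBP-207, and for ITGB2 it was ITGB2-205 and not ITGB2-201.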

How the data were processed

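The table the authors deposited holds raw counts in whole numbers for 295100 transcript rows across 12 libraries. Tools named in the submitters' processing notes are edgeR 3.32.1, Trim Galore 0.6.5, bcl2fastq 2.17.1.14, and builds are hg38 and dm6. Which aligner, counter, annotation and strand setting were used is not given in the sources used. The 3 columns named UT, a name not in the labels, were taken as DMSO, since the other 9 match inhibitor titles.

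Of 256726 human rows, 251529 were named through GENCODE v29, and the 5197 unnamed rows (0.655% to 0.719% of counts) were left out. Rows of a gene overlap, so the row with the highest total was used, and 94 genes with counts identical to another's (total of at least 120) were dropped. Which stretch of a transcript a row counts is not given. Depth was 5048372 to 12743626 counts per library, and chi-square values per gene between libraries of a group were 1.67 to 4.82, where sampling noise gives about 1, and each library counts as a sample of its own.

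Tests used edgeR 4.0.16 in R 4.3.3: filterByExpr (minimum count 10), TMM, and 1 quasi-likelihood fit of 12 libraries with a term for group alone. P-values were adjusted by Benjamini-Hochberg over all features tested and called under 0.05. Standard errors were obtained from the log2 fold change and the square root of its F statistic, and intervals are at 95%. Other settings tried were fly spike-in scaling, library size alone, upper quartile and RLE scaling, DESeq2 1.42.0, no count filter, only the 6 libraries compared, a replicate block, other row choices and leaving out each library. Row tests and their alternatives were chosen after seeing the data. The script was tested on simulated data. Genes named are all members, for each list the 2 genes of lowest adjusted p against DMSO under each inhibitor, and the 3 most alike genes per member, except that the lower ranks for FCGR1A are not reported here. FCGR1B, FCGR1CP and HCST were added because they share sequence or a 3' end with a member, after values were seen. The members and lists were chosen with earlier results of these data known. The sequences come from the GENCODE v29 transcripts.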

Additional observations from a re-analysis of the deposited data

How the results depend on the processing

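Scaling moved the counts of called genes most. With library size alone 2 genes were called for AZ5576 against DMSO, 2 for THZ531 against DMSO, 4 for AZ5576 against THZ531 and 0 for AZ5576 against YKL5124. With fly spike-in scaling the counts were 1 for AZ5576, 2 for THZ531 and 0 for YKL5124 against DMSO, and 0 for AZ5576 against YKL5124. For YKL5124 against DMSO, RLE, upper quartile scaling and only the 6 libraries compared each gave 2. Leaving out 1 library gave 3 to 6 calls for AZ5576 against DMSO, 6 to 7 for THZ531 against DMSO, 1 to 2 for YKL5124 against DMSO, 1 to 3 for AZ5576 against THZ531, 0 to 1 for AZ5576 against YKL5124 and 3 to 4 for THZ531 against YKL5124. Signs turned for THZ531 against DMSO in CD68 (-0.027 with library size alone, -0.099 with fly scaling), ITGB2 (-0.083, -0.15) and CD4 (-0.00065 with fly scaling), and for TYROBP in AZ5576 against DMSO (-0.017 with fly scaling). They also turned for THZ531 against YKL5124 in FCER1G (-0.0995, -0.13), ITGB2 (-0.041, -0.067) and TYROBP (-0.0038, -0.031), in the same order of settings. The cause was not tested. Of the other values of single genes and rows, 1340 kept their side of the threshold (72 of these, uncalled, changed sign), 75 lost a call and 31 gained one.

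Replicate numbers showed no pairing of the libraries. Deviations of log2 CPM from the group means correlated at -0.10 to 0.07 in 18 pairs of same-numbered libraries. In 36 pairs of libraries with other numbers, also from different groups, these deviations correlated at -0.09 to 0.11. With the replicate block 4 genes were called for AZ5576 against DMSO, where the call of TYROBP was lost (0.17), and counts of the other 5 comparisons were within 1.5 times. Counts near 10 CPM, as in ITGAM and CSF1R, limit what could be detected.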
